A study of Mus musculus with 20 samples.

Results

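The unfolded protein response and the chaperones of the endoplasmic reticulum (ER) were followed as a set of 34 genes in the hypothalamus of diet-induced obese mice given celastrol or its vehicle. A gene was taken where a probe set of the deposited table carried its symbol and no other, and the brightest such probe set over the 20 arrays stood for it. All 34 genes were found among the 18704 genes with such a probe set, and all 34 passed the filter on dim probe sets that left 14129 genes in the test. They comprised 8 lumenal chaperones, 3 J-domain co-chaperones, 4 protein disulfide isomerases, 3 stress sensors, 4 transcription factors, 4 targets of ATF4 and CHOP, 6 genes of ER-associated degradation and 2 genes of the translocon.

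Every array held hypothalamic RNA of a male C57BL/6J mouse, put on a 45% fat diet at 4 weeks of age and kept on it for 16 weeks. All mice were injected into the peritoneum, and the labels give 25 µl of dimethyl sulfoxide (DMSO) per day for vehicle and celastrol groups alike. Vehicle groups received DMSO without celastrol and were taken at 6 h, 1 day or 4 days, with 3 arrays at each time. Celastrol groups received celastrol, a triterpenoid of the thunder god vine, in DMSO and were measured on 4 arrays at 6 h, on 4 at 1 day, and on 3 at 4 days. The labels write the celastrol dose of 250 µg/kg beside the 6 h time alone. All groups share the obesity and the diet, and no lean or untreated group was analysed here.

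The ER folds secreted and membrane proteins with the help of chaperones such as BiP, the product of Hspa5, and of enzymes that form disulfide bonds. When unfolded proteins build up, the sensors PERK (Eif2ak3), IRE1 (Ern1) and ATF6 slow translation and switch on transcription of chaperones and of the degradation machinery through ATF4, spliced XBP1 and cleaved ATF6. In obese rodents, ER stress in the hypothalamus is associated with resistance to leptin, and celastrol has been described as a leptin sensitizer. The arrays report the transcript level of each gene and do not separate spliced from unspliced Xbp1, nor do they show phosphorylation or cleavage of the sensors.

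Several members carry short sequences in their promoters to which these factors are known to bind. The windows shown come from RefSeq (GRCm38.p6) and span 250 bases before to 50 bases after an annotated gene start; 30 of the 34 genes had such a window, and Atf6, Derl1, Hyou1 and Manf had none. Searching 5 patterns on both strands found the ER stress response element ERSE (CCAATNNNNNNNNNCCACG) in 8 of the 30 genes, against 0.137% of the 27025 genes with a window. ERSE-II (ATTGGNCCACG), which joins CCACG at a shorter spacing to CCAAT on the opposite strand, was found in 2 genes against 0.0444%. The element bound by ATF4 and its partners, CARE (TGATGNAA), was found in 5 genes against 4.51%. The XBP1 site UPRE (TGACGTGG) was found in 0 of the 30 genes against 0.714%, and the cyclic AMP response element CRE (TGACGTCA) in 1 gene, Ppp1r15a, against 2.03%. No pattern was found in 15 genes. The members were chosen for their part in this response, so these shares describe them and are not a test, and a match is a likeness of letters, not a binding site.

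The ERSE matches are shown because ERSE, to which ATF6 is known to bind, was the pattern found in the most members. Sequences run 5′ to 3′ on the gene's strand, with 6 bases on each side, and capitals mark the fixed letters of the motif, which read CGTGG and ATTGG where the motif lies on the opposite strand.
Hspa5 (chr2:34772019-34772049, + strand): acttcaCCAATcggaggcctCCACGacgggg
Hsp90b1, far match (chr10:86705632-86705662, - strand): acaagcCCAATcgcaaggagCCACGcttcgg
Hsp90b1, near match (chr10:86705527-86705557, - strand): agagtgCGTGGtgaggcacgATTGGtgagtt
Calr (chr8:84847069-84847099, - strand): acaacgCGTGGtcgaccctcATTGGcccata
Pdia6 (chr12:17266485-17266515, + strand): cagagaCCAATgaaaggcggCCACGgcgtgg
Dnajc3 (chr14:118937821-118937851, + strand): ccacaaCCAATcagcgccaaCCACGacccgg
Creld2 (chr15:88819514-88819544, + strand): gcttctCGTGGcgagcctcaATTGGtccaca
Canx (chr11:50325794-50325824, - strand): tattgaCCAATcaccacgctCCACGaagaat
Syvn1 (chr19:6046526-6046556, + strand): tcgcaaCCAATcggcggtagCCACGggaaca

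Herpud1 and Trib3 are shown because they had the largest celastrol differences at 1 day and at 6 h. Trib3 was also the dimmest member, as given below. Herpud1 held both an ERSE-II and a CARE match, and the CARE matches below lie on the opposite strand, where the fixed letters read TT and CATCA.
Herpud1, ERSE-II (chr8:94386371-94386393, + strand): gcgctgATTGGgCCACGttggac
Herpud1, CARE (chr8:94386311-94386330, + strand): ggcgggTTgCATCAgcccgc
Trib3, CARE (chr2:152344033-152344052, - strand): tcaggtTTaCATCAgccggg

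Sdf2l1, whose celastrol difference at 4 days was the largest of all, held none of the 5 patterns. The 250 bases before its start (chr16:17132384-17132633, - strand) hold CCAAT 3 times and CCACG 3 times, in capitals on either strand, at spacings other than those of ERSE. Over all genes with a window, 41.1% held CCAAT and 35.5% held CCACG, and each was found in 23 of the 30 members.
Sdf2l1: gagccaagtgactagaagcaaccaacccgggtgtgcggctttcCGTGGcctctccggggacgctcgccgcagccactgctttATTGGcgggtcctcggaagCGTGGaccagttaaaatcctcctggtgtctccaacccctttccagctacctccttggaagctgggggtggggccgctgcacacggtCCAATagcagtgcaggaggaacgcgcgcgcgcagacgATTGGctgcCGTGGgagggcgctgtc

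**Figure D1:**
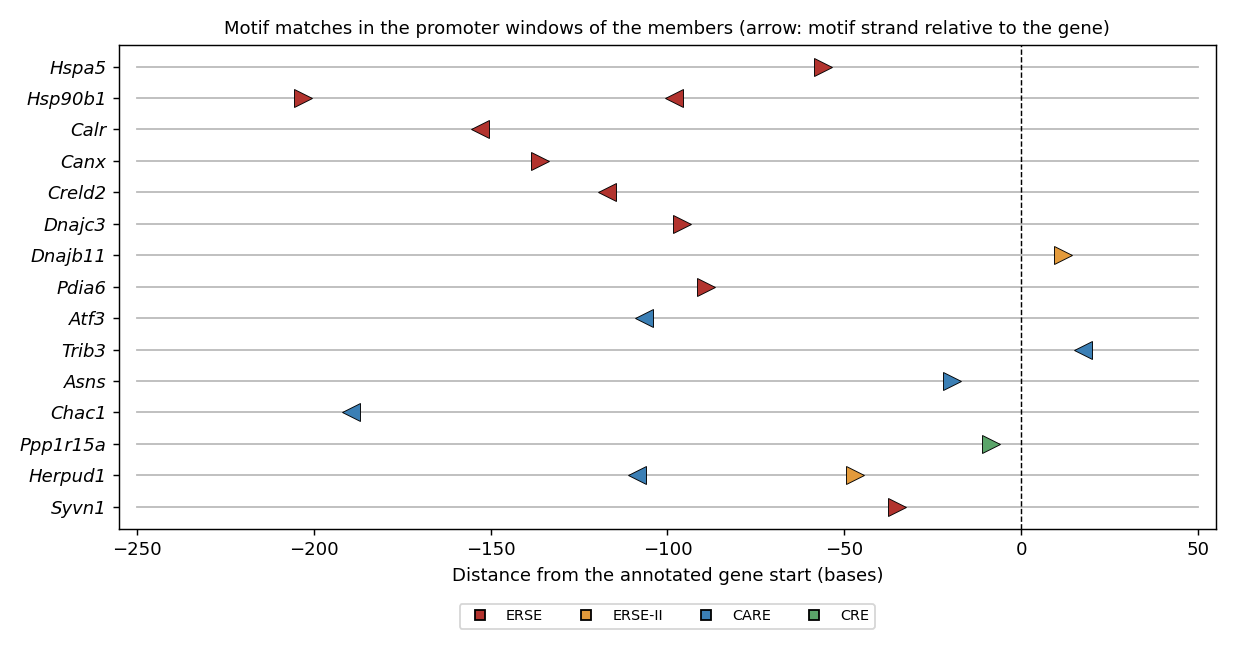
Positions of motif matches in the promoter windows of the 15 members that hold one; the x axis is the distance in bases from the annotated gene start, and the arrow gives the motif's strand relative to the gene. The ERSE matches of 8 genes all lie before the start, and the ERSE-II match of Dnajb11 and the CARE match of Trib3 lie after it.

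Values are log2 intensities after RMA, and each array's median lay between 8.60 and 8.65. The replicate 3 arrays of the 6 h and 1 day vehicle groups stand apart, with the widest spread over probe sets (SD of 2.06 on each, against 1.98 to 2.05 elsewhere), so the celastrol differences that moved by more than 0.05 without them are given below. All 16 hypothalamic neuron markers on the array were above the dim limit. Among markers of other cells, the 11 oligodendrocyte genes had a median celastrol difference of -0.17 at 1 day and -0.25 at 4 days. Of these, 2 were lower past the threshold at each of these times, where 0.425% and 0.0637% of all genes passed. The mean oligodendrocyte level lay between 10.90 and 11.03 on vehicle arrays and between 10.70 and 10.86 on celastrol arrays at 1 day. At 4 days it lay between 10.96 and 11.03 against 10.70 and 10.92, and at 6 h between 10.80 and 10.91 against 10.83 and 10.91. The 11 markers of the neighbouring thalamus had, at 6 h, a median celastrol difference of -0.31, with a lower celastrol mean for 10. An unadjusted p under 0.05 was found for 8 of them, against 7.55% of all genes, and none passed the threshold. The mean thalamus level was 9.85, 9.58 and 10.09 on the vehicle arrays at 6 h and lay between 9.43 and 9.67 on the other 17 arrays. Replicates 1 and 3 of the 6 h vehicle group were thus high. An alternative that leaves out both of these, chosen after the values were seen, keeps 1 vehicle array at 6 h, which is then assumed to vary like the other groups. The 10 anterior pituitary markers on the array, 6 of them above the dim limit, averaged 8.31 on celastrol replicate 4 at 6 h. They averaged between 7.05 and 7.75 on the other arrays. At 4 days they averaged 7.07, 7.42 and 7.05 with celastrol and 7.26, 7.65 and 7.56 with vehicle. The 18 genes that glucocorticoids induce had median differences of 0.64 at 1 day and 0.33 at 4 days. Of these, 10 passed at 1 day against 0.425% of all genes, and 1 at 4 days against 0.0637%. At 6 h the 18 averaged 10.06, 10.50 and 10.20 with vehicle and between 10.23 and 10.39 with celastrol. What these lists contribute to the results that follow was not tested, and fewer cells of a type cannot be told apart from less RNA per cell in whole tissue.

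Celastrol against vehicle was compared at each time to ask whether the response genes differed after treatment. None of the 34 members passed the threshold of an adjusted p of 0.05 (limma's moderated test, Benjamini-Hochberg adjustment over 14129 genes) at any time, nor in the average over the times. Of all genes tested, 0% passed at 6 h, 0.425% at 1 day, 0.0637% at 4 days and 0.573% in the average. At an unadjusted p under 0.05, 3 members were counted at 6 h against 7.55% of all genes, 2 at 1 day against 8.19%, 3 at 4 days against 6.53%, and 5 in the average against 8.78%. Celastrol and vehicle arrays did not overlap for 2 members at 6 h, 2 at 1 day and 4 at 4 days, where 6.35%, 7.81% and 14.4% of all genes did not overlap. These members were Eif2ak3 and Canx at 6 h, Herpud1 and Dnajb9 at 1 day, and Sdf2l1, Ern1, Sec61b and Eif2ak3 at 4 days.

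The data also bound how large a difference could be. The 95% interval of every member lay within 1.5-fold in either direction at each time. It lay within 1.25-fold for 33 members at 6 h, 33 at 1 day and 32 at 4 days, and within 1.2-fold for all 34 in the average over the times. These intervals are per gene, are not adjusted for the number of genes, and hold on the scale of array intensities. The median member difference was -0.02 at 6 h, -0.01 at 1 day and -0.02 at 4 days, beside -0.01, 0.01 and 0.01 for all genes. Celastrol was lower in 25, 21 and 19 of the 34 members at these times, and in 58.3%, 46.2% and 45.6% of all genes. The 6 h count rested on the vehicle arrays named above: it was 17 without the arrays that stand apart and 13 without the thalamus-high arrays, with medians of 0.00 and 0.02.

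Without the arrays that stand apart, 12 members moved by more than 0.05 at 6 h, and none passed. The difference went from 0.13 to 0.00 for Sec61b, from -0.14 to -0.08 for Edem1, from -0.10 to -0.04 for Derl2 and from 0.21 to 0.13 for Trib3. It went from -0.09 to 0.01 for Dnajb11, from -0.04 to 0.03 for Manf, from -0.03 to 0.05 for Pdia4 and from -0.01 to 0.04 for Dnajb9. It went from 0.04 to 0.11 for Pdia3, from 0.06 to 0.11 for Atf4, from -0.02 to 0.09 for Atf3 and from -0.00 to -0.06 for Ssr1. Xbp1 went from -0.08 to -0.03. At 1 day 4 members moved as much, Sdf2l1 from -0.16 to -0.21, Eif2ak3 from -0.05 to 0.00, Trib3 from -0.05 to -0.15 and Derl2 from -0.01 to 0.04.

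Without the thalamus-high arrays 20 members moved by more than 0.05 at 6 h, and none passed. Edem1 was then 0.02, Trib3 0.03, Hspa5 0.09, Herpud1 -0.08 and Eif2ak3 -0.11. The signs and sizes of the members' 6 h differences depend on which of the 3 vehicle arrays are used.

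**Figure D2:**
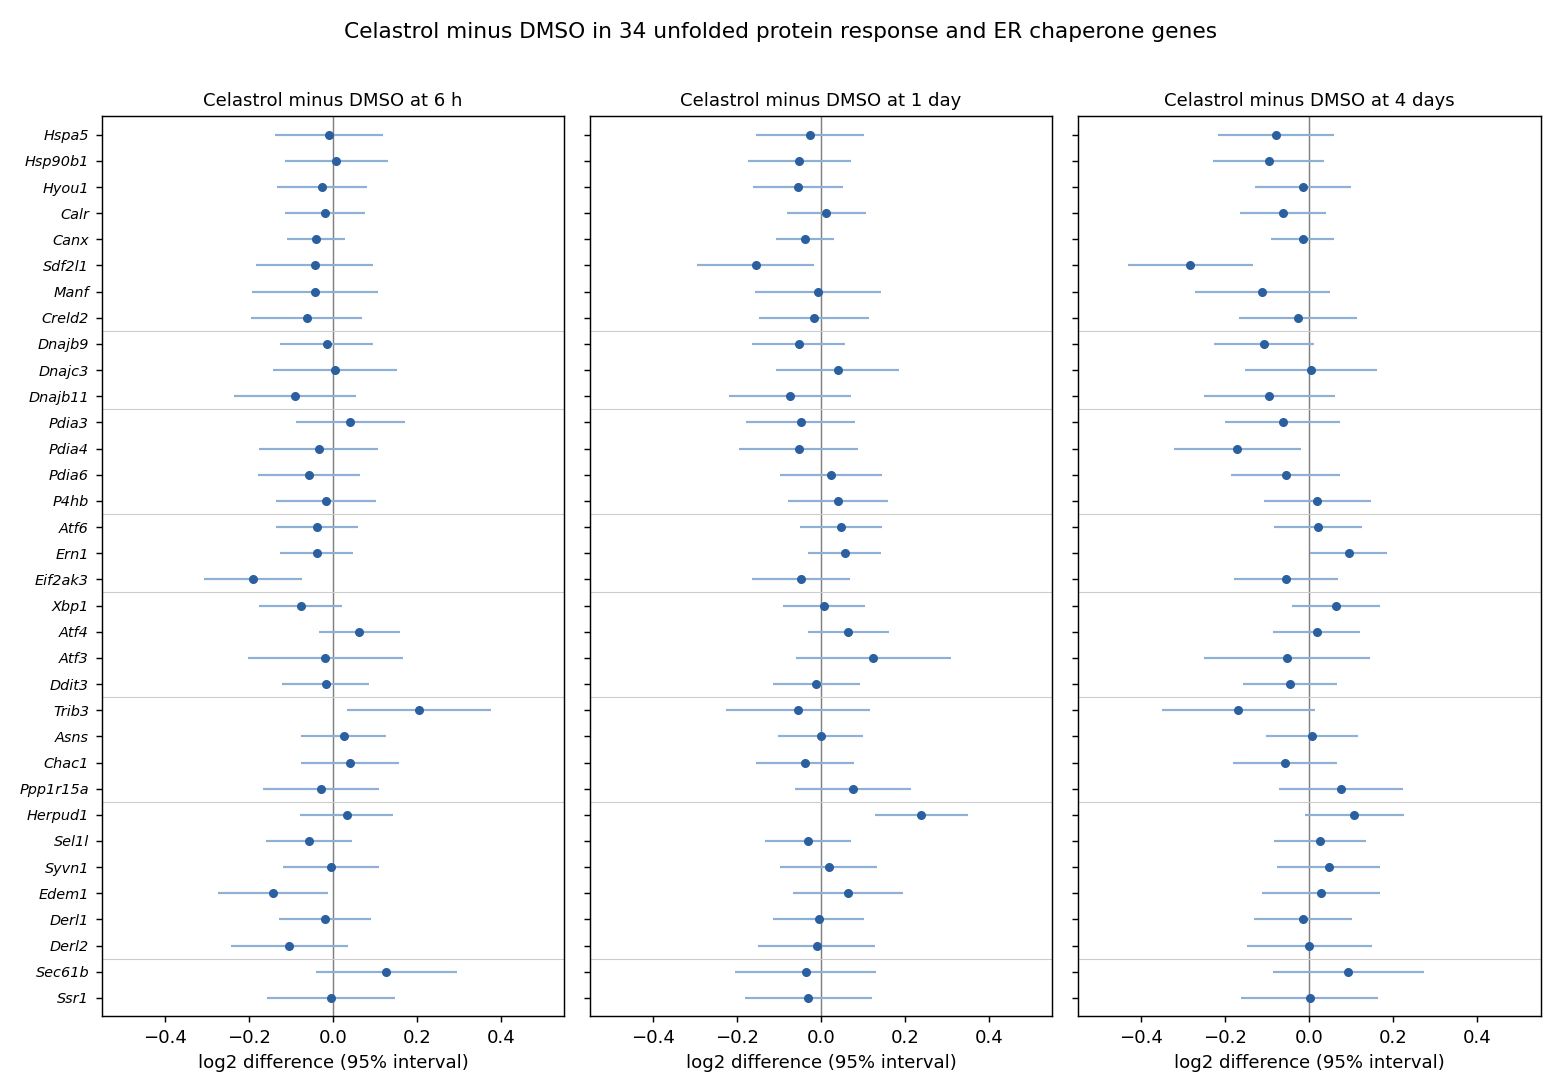
Celastrol minus DMSO for the 34 members at 6 h, 1 day and 4 days, on the log2 scale; points are differences of group means, bars their 95% intervals, and grey lines separate the roles. The intervals of 31, 32 and 31 members include 0, and the points farthest from 0 are Trib3 at 6 h, Herpud1 at 1 day and Sdf2l1 at 4 days.

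Among the lumenal chaperones, celastrol means were lower for 7 of 8 genes at 6 h, 7 at 1 day and 8 at 4 days, with median log2 differences of -0.03, -0.03 and -0.07, and none passed. The 6 h count was 4 of 8 without the arrays that stand apart and 5 without the thalamus-high arrays. The 1 day count was again 7 without the arrays that stand apart. The thalamus-high alternative leaves out no 1 day array, and neither alternative leaves out a 4 day array, so those counts could not change. Several of these chaperones varied together from array to array, as given below, so the counts are not of separate observations. The shares of all genes that were lower are given above. Hspa5, which encodes the master chaperone BiP, read 12.49, 12.32 and 12.45 on the vehicle arrays at 6 h and 12.38, 12.30, 12.57 and 12.41 on the celastrol arrays. At 1 day Hspa5 read 12.56, 12.43 and 12.43 with vehicle and 12.41, 12.43, 12.53 and 12.41 with celastrol. At 4 days it read 12.53, 12.45 and 12.38 with vehicle and 12.43, 12.30 and 12.38 with celastrol. The groups overlapped at every time, and the Hspa5 difference at 4 days was -0.08 ± 0.07 (SE; limma adjusted p = 0.912).

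Sdf2l1, which encodes a partner of BiP in the ER lumen, was the chaperone farthest from 0 at 1 day, at 4 days and in the average over the times. It read 9.63, 9.74 and 9.77 with vehicle at 6 h and 9.64, 9.66, 9.69 and 9.70 with celastrol. At 1 day Sdf2l1 read 10.11, 9.87 and 9.82 with vehicle and 9.66, 9.76, 9.92 and 9.77 with celastrol, and at 4 days 9.95, 9.83 and 9.83 against 9.66, 9.55 and 9.55. All 3 celastrol arrays at 4 days were below all 3 vehicle arrays, while the groups overlapped at the earlier times. The Sdf2l1 difference was -0.28 ± 0.07 (SE) at 4 days, 1.22-fold lower (limma adjusted p = 0.255), and -0.16 ± 0.04 in the average over the times (limma adjusted p = 0.0741). Without the arrays that stand apart, the average was -0.17 (limma adjusted p = 0.0859).

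The other lumenal chaperones differed less. At 4 days the log2 difference was -0.10 for Hsp90b1, the ER form of HSP90, -0.06 for the calcium-binding lectin Calr, and -0.02 for its membrane-bound relative Canx. It was -0.02 for Hyou1, a nucleotide exchange factor of BiP, -0.11 for Manf, a secreted ER stress protein, and -0.03 for Creld2. The J-domain proteins help BiP to bind its clients, and their differences at 4 days were -0.11 for Dnajb9, 0.00 for Dnajc3 and -0.10 for Dnajb11.

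The protein disulfide isomerases form and rearrange disulfide bonds. Pdia4 read 11.00, 10.87 and 10.94 with vehicle at 4 days and 10.90, 10.70 and 10.70 with celastrol, so 1 celastrol array lay within the vehicle range. Its difference was -0.17 ± 0.07 (SE; limma adjusted p = 0.732). At the same time the differences were -0.06 for Pdia3, -0.06 for Pdia6 and 0.02 for P4hb.

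Among the stress sensors, Eif2ak3 had the smallest p at 6 h. It read 9.20, 9.11 and 9.28 with vehicle at 6 h and 8.98, 9.10, 9.03 and 8.93 with celastrol, and the groups did not overlap. At 1 day Eif2ak3 read 8.87, 8.95 and 9.06 with vehicle and 8.83, 9.00, 8.87 and 8.96 with celastrol, and at 4 days 9.03, 9.05 and 9.07 against 8.95, 9.00 and 9.03. The 4 day groups barely missed overlapping, with 9.0302 as the lowest vehicle value and 9.0297 as the highest celastrol value. The 6 h difference was -0.19 ± 0.06 (SE; limma adjusted p = 0.582), -0.15 (adjusted p = 0.999) without the arrays that stand apart, and -0.11 (adjusted p = 1.00) without the thalamus-high arrays. Atf6 differed by -0.04 at 6 h, 0.05 at 1 day and 0.02 at 4 days.

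Ern1 read 9.18, 9.07 and 9.18 with vehicle at 6 h and 9.07, 9.10, 9.13 and 9.12 with celastrol. At 1 day Ern1 read 9.16, 9.16 and 9.27 with vehicle and 9.22, 9.30, 9.21 and 9.28 with celastrol, and at 4 days 9.15, 9.16 and 9.21 against 9.26, 9.25 and 9.28. Its groups overlapped at 6 h and at 1 day but not at 4 days, where the difference was 0.09 ± 0.04 (SE; limma adjusted p = 0.755).

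The transcription factors carry the signal to the nucleus, and their celastrol and vehicle arrays overlapped at all 3 times. Xbp1 read 11.43, 11.57 and 11.63 with vehicle at 6 h and 11.44, 11.46, 11.50 and 11.48 with celastrol. At 1 day Xbp1 read 11.60, 11.49 and 11.53 against 11.57, 11.61, 11.53 and 11.48, and at 4 days 11.40, 11.40 and 11.46 against 11.52, 11.44 and 11.49. Its differences were -0.08, 0.01 and 0.06 in the order of the times.

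Atf4, the factor translated when PERK is active, read 8.82, 8.94 and 9.04 with vehicle at 6 h and 8.98, 8.98, 9.03 and 9.00 with celastrol. At 1 day Atf4 read 8.89, 8.88 and 8.91 against 8.99, 8.99, 8.96 and 8.91, and at 4 days 8.93, 8.94 and 9.05 against 9.00, 8.96 and 9.01. Its differences were 0.06, 0.07 and 0.02. Atf3, a factor induced by many stresses, differed by -0.02, 0.12 and -0.05.

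Ddit3, which encodes the pro-apoptotic factor CHOP, read 8.67, 8.59 and 8.59 with vehicle at 6 h and 8.69, 8.50, 8.58 and 8.64 with celastrol. At 1 day Ddit3 read 8.69, 8.54 and 8.68 against 8.57, 8.63, 8.67 and 8.64, and at 4 days 8.67, 8.69 and 8.58 against 8.56, 8.61 and 8.63. Its differences were -0.02, -0.01 and -0.05.

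Of the targets of ATF4 and CHOP, Trib3, a pseudokinase that inhibits AKT, had the largest differences at 6 h and 4 days. It read 7.65, 7.83 and 7.50 with vehicle at 6 h and 7.89, 7.92, 7.80 and 7.86 with celastrol, and the groups overlapped. The Trib3 difference was 0.21 ± 0.08 (SE; limma adjusted p = 0.644) at 6 h, 0.13 without the arrays that stand apart and 0.03 without the thalamus-high arrays. It was -0.05 at 1 day and -0.17 at 4 days. Trib3 was also the dimmest member, with a mean level of 7.73, and 35.3% of genes were dimmer. Its SD within groups, 0.12, was larger than that of 80.7% of genes. The sizes of its differences therefore come from a dim and variable signal. Asns, which makes asparagine, differed by 0.03, -0.00 and 0.01, and Chac1, which degrades glutathione, by 0.04, -0.04 and -0.06. Ppp1r15a, the phosphatase subunit that restores translation, differed by -0.03, 0.08 and 0.08.

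In ER-associated degradation, Herpud1, a membrane organiser of the degradation complex, had the smallest adjusted p of any member against vehicle. It read 11.31, 11.50 and 11.35 with vehicle at 6 h and 11.40, 11.43, 11.39 and 11.45 with celastrol. At 1 day Herpud1 read 11.30, 11.24 and 11.28 with vehicle and 11.44, 11.48, 11.62 and 11.50 with celastrol, and at 4 days 11.32, 11.35 and 11.40 against 11.37, 11.47 and 11.55. All 4 celastrol arrays at 1 day were above all 3 vehicle arrays. The 1 day difference was 0.24 ± 0.05 (SE), 1.18-fold, and missed the threshold (limma adjusted p = 0.0536), as did the average over the times of 0.13 ± 0.03 (limma adjusted p = 0.0791). The 1 day difference was 0.24 without the arrays that stand apart (limma adjusted p = 0.0964). Leaving out the thalamus-high arrays, which are 6 h arrays, could not move the 1 day difference. The Herpud1 difference at 1 day passed with array weights (limma adjusted p = 0.0171) and with an intensity trend in the prior variance (0.0173). It also passed with a stricter filter on dim genes (0.0368), so its call depends on the setting.

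Edem1, a lectin that directs misfolded glycoproteins to degradation, differed by -0.14 ± 0.06 (SE; limma adjusted p = 0.651) at 6 h, and by 0.06 and 0.03 later. The 6 h value was -0.08 without the arrays that stand apart and 0.02 without the thalamus-high arrays. Sel1l and Syvn1, the core of the HRD1 ubiquitin ligase complex, differed by -0.06 and -0.00 at 6 h, -0.03 and 0.02 at 1 day, and 0.03 and 0.05 at 4 days. The derlins Derl1 and Derl2 differed by -0.02 and -0.10 at 6 h, -0.01 and -0.01 at 1 day, and -0.01 and 0.00 at 4 days. At the translocon, through which new proteins enter the ER, Sec61b differed by 0.13, -0.04 and 0.09 and Ssr1 by -0.00, -0.03 and 0.00 at the 3 times. Sec61b had 3 probe sets, and the dimmer ones gave 0.05 and 0.04 at 6 h. The 6 h value of Sec61b was 0.00 without the arrays that stand apart.

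**Figure D3:**
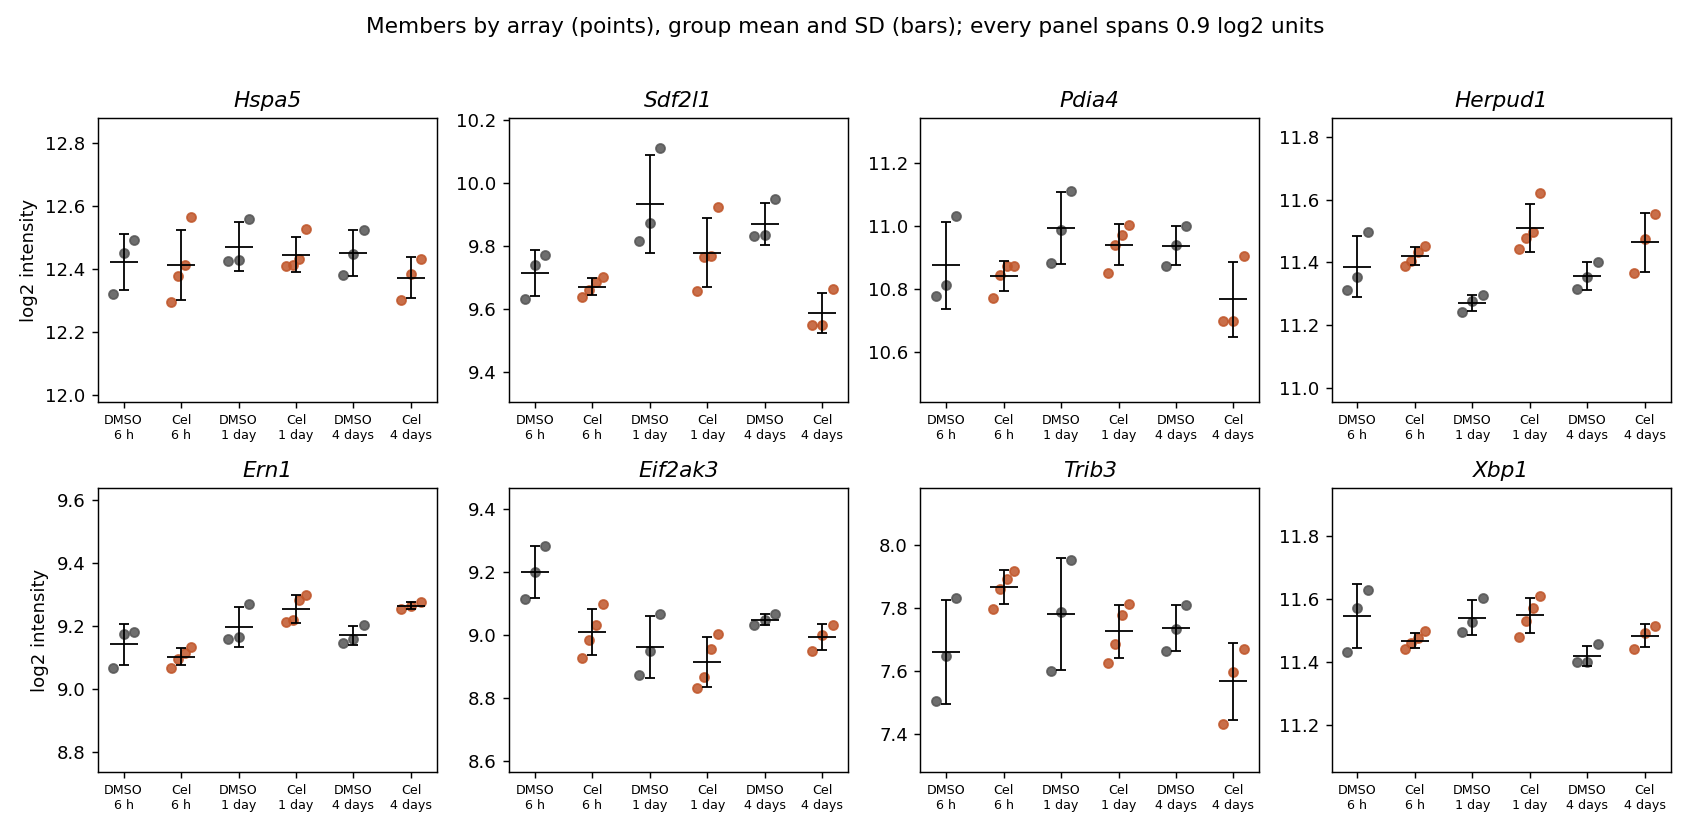
Log2 intensity of 8 members on each array, by treatment and time; points are arrays, and bars give the group mean and SD (n = 3 or 4). Sdf2l1 at 4 days, Herpud1 at 1 day, Eif2ak3 at 6 h and 4 days, and Ern1 at 4 days separate celastrol (Cel) from DMSO arrays. Hspa5 and Xbp1 overlap at every time.

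Whether the celastrol difference itself varied between times was tested with interaction terms, and no member passed. Of all genes, 0.00708% passed for 1 day against 6 h, 0.0142% for 4 days against 6 h and 0.00708% for 4 days against 1 day. At an unadjusted p under 0.05 the counts were 3 members against 10.3% of all genes, 3 against 7.68% and 0 against 2.47%. The largest was that of Trib3, the dimmest member, for 4 days against 6 h, at -0.37 ± 0.12 (SE; limma adjusted p = 0.611).

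Times were compared within each treatment, where time, hour of collection and array processing cannot be told apart. In vehicle arrays no member passed, while 0.0991% of all genes passed for 1 day minus 6 h, 0.0283% for 4 days minus 6 h and 0% for 4 days minus 1 day. At an unadjusted p under 0.05 the vehicle counts were 5 members against 12.5% of all genes, 3 against 10.6% and 2 against 7.37%. In celastrol arrays no member passed either, against 0.134%, 0.892% and 0.0425% of all genes in the same order, and the unadjusted counts were 3 against 17.2%, 3 against 20.3% and 8 against 12.1%. The vehicle difference of Eif2ak3 for 1 day minus 6 h was -0.24 ± 0.06 (SE; limma adjusted p = 0.0938), and that of Sdf2l1 was 0.22 ± 0.07 (limma adjusted p = 0.204). They were -0.25 and 0.31 without the arrays that stand apart (limma adjusted p = 0.224 for each), and -0.15 and 0.19 without the thalamus-high arrays (limma adjusted p = 0.644 and 0.640). These comparisons share the 6 h vehicle arrays with the celastrol comparison at 6 h.

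Of the 14 comparisons, only 1 gave a call among the members. In the mean of both treatments, Ern1 was higher at the later times than at 6 h, by 0.10 ± 0.03 (SE; limma adjusted p = 0.0408), where 3.05% of all genes passed. Within celastrol arrays Ern1 was 0.15 ± 0.04 higher at 1 day than at 6 h (limma adjusted p = 0.0955) and 0.16 ± 0.04 higher at 4 days (limma adjusted p = 0.0586). Within vehicle arrays the differences were 0.06 ± 0.04 (limma adjusted p = 0.652) and 0.03 ± 0.04 (limma adjusted p = 0.869). The change in the celastrol effect was 0.09 ± 0.06 from 6 h to 1 day (limma adjusted p = 0.560) and 0.13 ± 0.06 from 6 h to 4 days (limma adjusted p = 0.646). At an unadjusted p under 0.05 there were 4 members against 20.4% of all genes. Without the arrays that stand apart the Ern1 difference was 0.10 and the call was lost (limma adjusted p = 0.0577), and it was 0.14 without the thalamus-high arrays (limma adjusted p = 0.0572). Eif2ak3 was -0.12 ± 0.03 (SE) in the same comparison and missed the threshold (limma adjusted p = 0.0543), and -0.08 without the thalamus-high arrays (limma adjusted p = 0.322).

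A further 111 genes of the same pathways were listed, of which 103 were on the array and 101 were tested. None of them passed for celastrol against vehicle at any time or on average, and 8, 9 and 7 had an unadjusted p under 0.05 at 6 h, 1 day and 4 days, beside 7.55%, 8.19% and 6.53% of all genes. The 19 other ER folding genes had median differences of -0.07, 0.01 and 0.05, the 18 of ER-associated degradation -0.03, 0.04 and 0.02, and the 28 amino acid and ATF4 targets -0.01, 0.02 and 0.01. The 19 of stress signalling had -0.01, 0.01 and 0.00, and the 17 of the translocon and signal peptidase -0.03, -0.00 and 0.00. Between times, Eif2ak4, the amino acid sensor GCN2, rose by 0.26 ± 0.05 (SE) in celastrol arrays from 6 h to 4 days (limma adjusted p = 0.0406), where 0.892% of all genes passed. Spcs1, a signal peptidase subunit, rose by 0.13 ± 0.03 at the later times in the mean of both treatments (limma adjusted p = 0.0341), where 3.05% of all genes passed. Each was the only 1 of the 101 genes past the threshold in its comparison.

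Within groups, some members varied with Hspa5 from array to array. Each gene's deviation from its group mean was correlated with that of Hspa5 over the 20 arrays, which share normalisation. Thalamus and pituitary marker levels varied between these arrays, and what this adds to the correlations was not tested. The correlations were not recomputed without the thalamus-high arrays. The choice of Hspa5 as reference and of a limit of 0.5 was made after the correlations had been seen, so the values are a description. Permutation tests were run on the same correlations, but they cannot allow for that choice and are left out. Hsp90b1 had Pearson's r of 0.82 and Spearman's rho of 0.82, and Calr 0.74 and 0.74. Pdia6 had an r of 0.74 and a rho of 0.70, Dnajc3 0.73 and 0.69, Creld2 0.68 and 0.65, and Dnajb11 0.63 and 0.68. Other lumenal chaperones were lower, with an r of 0.23 for Manf, 0.15 for Canx and 0.15 for Hyou1. Leaving out the 2 arrays farthest from the median of Hspa5 gave an r of 0.84 for Hsp90b1, 0.73 for Calr, 0.76 for Pdia6 and 0.58 for Dnajc3.

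An r of at least 0.5 was reached by 10 of the 33 members, against 5.06% of all genes, and the median r was 0.21 against 0.04. Without the arrays that stand apart 10 members reached it, against 8.57% of all genes. With each of the 34 members in turn as the reference, the count of others at 0.5 ran from 0 to 14 with a median of 4. It was 14 for Pdia4, against 6.44% of all genes, and 10 for Pdia6, against 7.08%. For Atf4 and Derl2 it was 4 each, against 12.2% and 16.7%. It was 0 for Atf3, Ddit3 and Syvn1, against 1.21%, 1.70% and 3.36%. Of the 7 ERSE genes other than Hspa5, shown above, 5 reached 0.5 and the exceptions were Canx at 0.15 and Syvn1 at -0.16. Of the 15 members whose window held none of the 5 patterns, 4 did, and of the 5 genes with CARE, 0 did. At the opposite end stood Trib3 at -0.40, Herpud1 at -0.25 and Atf3 at -0.24. These groupings were made after the correlations had been seen and were not tested.

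**Figure D4:**
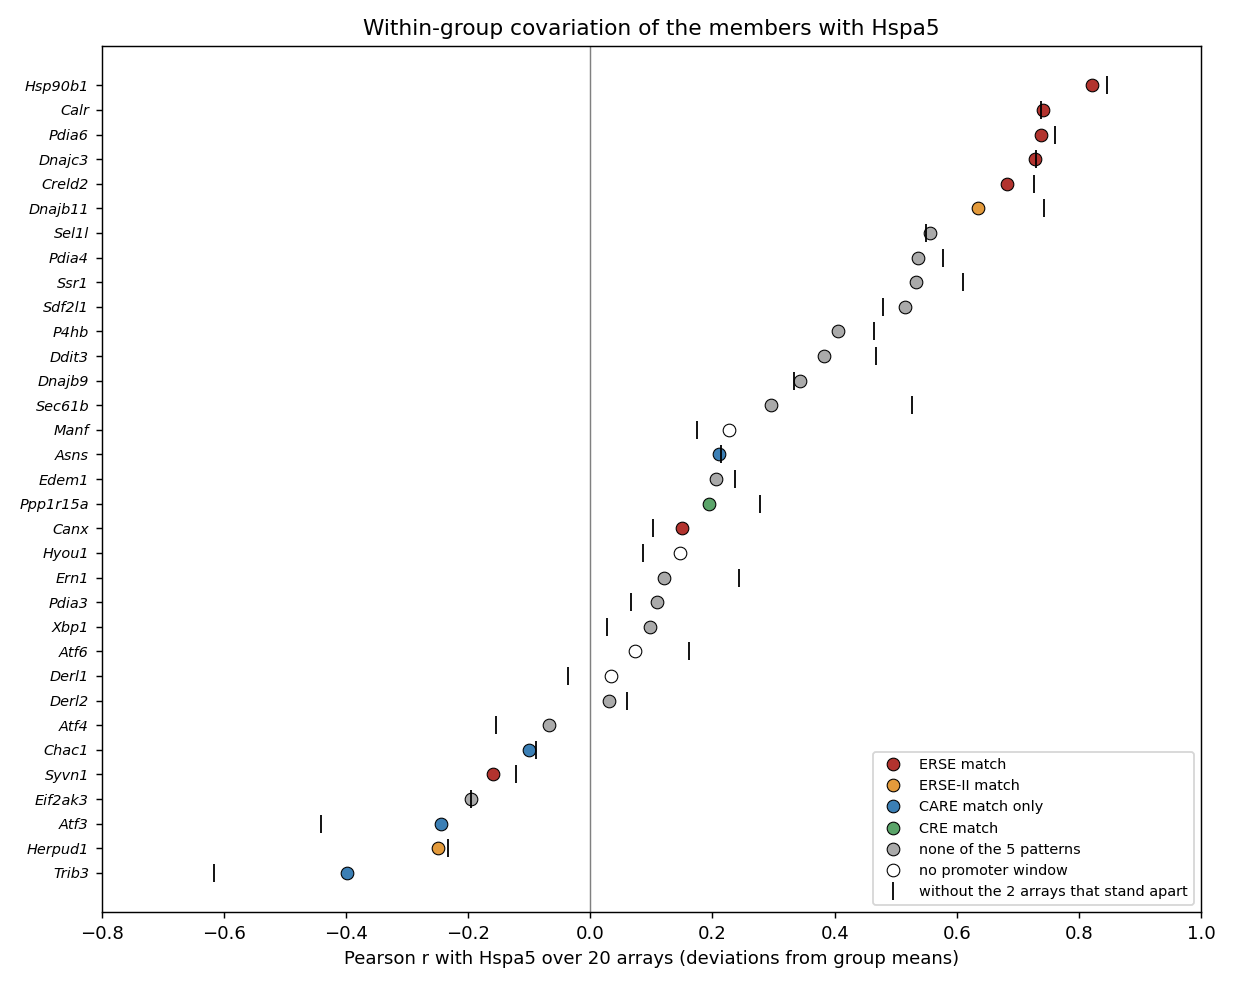
Pearson's r of each member with Hspa5 over 20 arrays, computed on deviations from group means; point colour gives the promoter pattern found, and ticks give r without the 2 arrays that stand apart. Hsp90b1, Calr, Pdia6, Dnajc3 and Creld2, which hold an ERSE match, have the highest values, from 0.68 to 0.82.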

How the data were processed

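Log2 intensities, deposited by the authors for 23492 probe sets of 20 Affymetrix Mouse Gene 1.0 ST arrays, were made with RMA per the submitters' processing notes, with no version given in the sources used here. By the platform annotation, 20228 probe sets carried a single symbol, 1399 carried several, and 1865 had no symbol and stayed unnamed. Probe sets with a mean below the 25th percentile (7.04) were left out. Group means were compared with limma 3.58.1 (R 4.3.3), moderated by eBayes over 14 residual degrees of freedom, in 14 comparisons. All tests were two-sided.

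The members, the gene lists and the tests were chosen with earlier results of these data known. All members are named, with every array for the main factors, for members past the threshold and for the smallest p of each treatment comparison; Pdia4 and Trib3 were added after their values were seen. The promoter patterns, the windows printed and the covariation analysis were also chosen after values were seen. Labels call the arrays biological replicates and name no batch. Of 9 pairs of same-numbered arrays at the same time, 1 had a correlation over 0.1. Pairs with different numbers were not set beside them, so this does not show whether arrays were paired. The number of arrays limits the precision. The procedure was tested on simulated data, and 31 alternative settings were tried.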

Additional observations from a re-analysis of the deposited data

Results flagged for a closer look

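In the groups of 4 arrays, 68 gaps were tested for a single array far from the others, and chance would give about 1 in 20. Canx on celastrol replicate 1 at 6 h read 13.38, against 13.36 on the other 3 arrays. Derl1 on celastrol replicate 4 at 1 day read 11.28, against 11.45 to 11.46 on the others.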

How the results depend on the processing

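Leaving out both 6 h DMSO arrays with high thalamus markers (the thalamus-high arrays below) was chosen after seeing the data. No setting gave a member call for celastrol against DMSO at 6 h or at 4 days, for any difference between times of the celastrol effect, or within DMSO arrays. At 1 day Herpud1 passed, as 1 member, with the filter at the 40th percentile (limma adjusted p = 0.0368), without the thalamus-high arrays (0.0345), with array weights (0.0171) and with an intensity trend in the prior variance (0.0173), and leaving out each array gave 0 to 1 members, with Herpud1 passing without DMSO replicate 1 or 2 at 6 h or celastrol replicate 1 or 3 at 4 days. None of the arrays left out for these Herpud1 calls was a 1 day array, so its difference could not move and only its estimated spread did. In the average over the times, array weights gave 1 member (Sdf2l1, limma adjusted p = 0.0428), an intensity trend gave 2 (Sdf2l1 and Herpud1), and leaving out each array gave 0 to 1. Single arrays that gave it were DMSO replicate 2 at 6 h and celastrol replicate 1 at 4 days for Herpud1, and replicate 3 of the DMSO and of the celastrol arrays at 1 day for Sdf2l1.

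For later times minus 6 h, the count was 2 members, Ern1 and Eif2ak3, with arrays quantile normalized again, with the filter at the 40th percentile, with the replicate block and with an intensity trend. It was 0 with no filter on dim genes, without the 2 arrays that stand apart and without the thalamus-high arrays, and 0 to 1 on leaving out each array. The Ern1 call was lost without any of DMSO replicate 2 at 6 h, DMSO replicate 3 at 1 day, celastrol replicates 1 to 4 at 6 h, celastrol replicate 2 or 4 at 1 day, or any array at 4 days, and with arrays centred on their medians, where Eif2ak3 passed. Within celastrol arrays, 1 day minus 6 h gave 1 member (Ern1) with array weights and without the arrays that stand apart. For 4 days minus 6 h there was 1 member with the filter at the 40th percentile (Ern1), without the thalamus-high arrays (Ern1) and with the replicate block (Trib3), and 2 (Ern1 and Trib3) with array weights and without the arrays that stand apart. Leaving out each array gave 0 to 2, the latter without DMSO replicate 3 at 1 day. Replicate numbers are not known to pair arrays, and same-number correlations ran from -0.29 to 0.29.

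The median member difference moved to -0.011 (arrays centred) and -0.017 (quantile normalized again) for the change in celastrol effect from 6 h to 1 day, and to -0.036 (quantile normalized again) from 6 h to 4 days. It moved to 0.061 for DMSO at 1 day minus 6 h without the arrays that stand apart, to 0.018 for celastrol at 1 day minus 6 h with arrays centred, and ran from -0.062 to -0.0069 for celastrol at 4 days minus 1 day on leaving out each array. Without the thalamus-high arrays it moved to 0.021 for celastrol at 6 h, to -0.021 and -0.038 for the change in celastrol effect from 6 h to 1 day and to 4 days, and to 0.054 for DMSO at 4 days minus 6 h.

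Differences near 0 changed sign, and at 6 h without the thalamus-high arrays Edem1 became 0.017, Hspa5 0.092 and Ddit3 0.0094. Hspa5 at 6 h became 0.00060 with arrays centred, 0.0021 quantile normalized again, 0.013 with array weights and 0.0061 without the arrays that stand apart, and ran from -0.059 to 0.031 on leaving out each array; at 1 day it ran from -0.054 to 0.018. Xbp1 at 1 day became -0.014 with arrays centred and -0.00082 without the arrays that stand apart, and ran from -0.017 to 0.038. Atf4 at 4 days ran from -0.0038 to 0.058. Ddit3 at 6 h ran from -0.046 to 0.016, and at 1 day it became 0.025 with array weights and 0.0096 without the arrays that stand apart, and ran from -0.058 to 0.015. The causes of these changes were not tested.

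Over the alternatives, the count of all genes past the threshold ran from 0 to 6 at 6 h, 18 to 196 at 1 day, 0 to 20 at 4 days, 10 to 156 in the average and 82 to 670 for later times minus 6 h. Counts of members at an r of 0.5 with Hspa5 were 10, or 8 without the 2 farthest arrays and 8 quantile normalized again, alternatives chosen after seeing the data.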
